A study of Equus caballus with 31 samples.

Results

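Complement is a set of proteins that tags microbes, immune complexes and damaged tissue and calls in leukocytes. The genes described here are 9 symbols chosen by name from that system: C2, C3, CFB, CFD, CFP, C5AR1, C3AR1, SERPING1 and CD55. Of these, 8 had a row in both of the deposited expression tables, which share 16799 gene symbols, while C3 was not analysed here. By role they fall into 4 components of the cascade (C2, CFB, CFD, CFP), 2 receptors (C5AR1, C3AR1) and 2 regulators (SERPING1, CD55). The C1q genes are left out by choice.

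RNA was sequenced from the cells of joint (synovial) fluid and from peripheral blood mononuclear cells (PBMC) of horses whose osteoarthritis (OA) had arisen naturally, and of healthy horses. All are labelled wild type. The groups are OA fluid (5 horses), healthy fluid (11), OA blood (6) and healthy blood (9), with 13 horses giving both. The horses had been classed by lameness evaluation, radiographs and, in OA, by joint analgesia, and none had received medication or a joint injection within the last 2 months. Fluid cells were pelleted from hyaluronidase-treated fluid and are a mixture, and each library is 1 horse. The labels give no age, sex or batch for any horse.

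In the alternative pathway, factor B binds C3b and is cut by factor D, which makes the C3 convertase that properdin, the product of CFP, holds together. C2 is the counterpart of factor B in the classical and lectin pathways. The small fragments C3a and C5a signal to leukocytes through C3AR1 and C5AR1, the C1 inhibitor (SERPING1) blocks the first proteases, and CD55 speeds the decay of convertases on the cell's own surface. The liver makes much of the circulating complement, whereas monocytes, macrophages, neutrophils and synovial cells also express parts of it.

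Fluid libraries held 25.9 to 36.3 M reads and blood libraries 23.9 to 34.8 M. Blood libraries of OA horses were deeper on average (33.5 ± 1.14 M, SD, n = 6, against 27.5 ± 2.31 M, SD, n = 9). The blood ranges overlapped, as healthy ORC_197 (32.2 M) exceeded OA_1038 (31.7 M). In fluid, 9 of 10 T cell markers and 1 of 5 B cell markers (CD79A) were called lower in OA, where 13.6% of all genes tested were. Called higher were 4 of 13 fibroblast markers, 1 of 6 monocyte markers and 1 of 6 resident macrophage markers. Of all genes tested in fluid 14.4% were called higher, so 1 of 6 is near that share. In PBMC, 3 of 6 monocyte markers and 1 of 5 neutrophil markers were called higher in OA, as was 1 of 4 resident macrophage markers (MERTK). Of 5 B cell markers 1 was called lower (BLK), and no T cell marker was called. Over all genes tested in blood, 3.2% were called higher and 2.2% lower. T cell, B cell and monocyte markers were present in every PBMC group. Of 13 fibroblast markers, COL1A1, DCN and LUM were at 0 in all 6 OA blood libraries and PDPN in all 9 healthy ones. The 13 together summed to 416 to 980 in OA blood and 409 to 1271 in healthy blood. In these bulk samples fewer cells of a type and less RNA per cell cannot be told apart. Earlier results had shown the fluids of horses OA_9570 and ORC_202 to stand apart, so the called genes are given without them as well. Values below are normalized read counts, scaled within each tissue only and not per gene length, so levels are compared neither between tissues nor between genes.

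In fluid, CFB was lower in OA and limma called no other of the 8 genes. With limma and an adjusted p below 0.05, 1 of 8 genes was lower, where 13.6% of the 13885 genes tested were lower. None was called higher, where 14.4% of all genes tested were. At an unadjusted p below 0.05, 2 were higher (C5AR1, CD55). EdgeR called 0 higher and DESeq2 called 2 higher (C3AR1, CD55). The 13.6% and 14.4% are for limma at an adjusted p below 0.05. No share over all genes is given for the other counts. The median log2 change of the 8 genes was 0.48, against 0.08 over all genes tested, and 7 of the 8 lay above 0. Of the 13885 genes tested, 7468 lay above 0. Among those 7 members, C2, CFD, CFP and SERPING1 turned below 0 in some other settings.

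**Figure D1:**
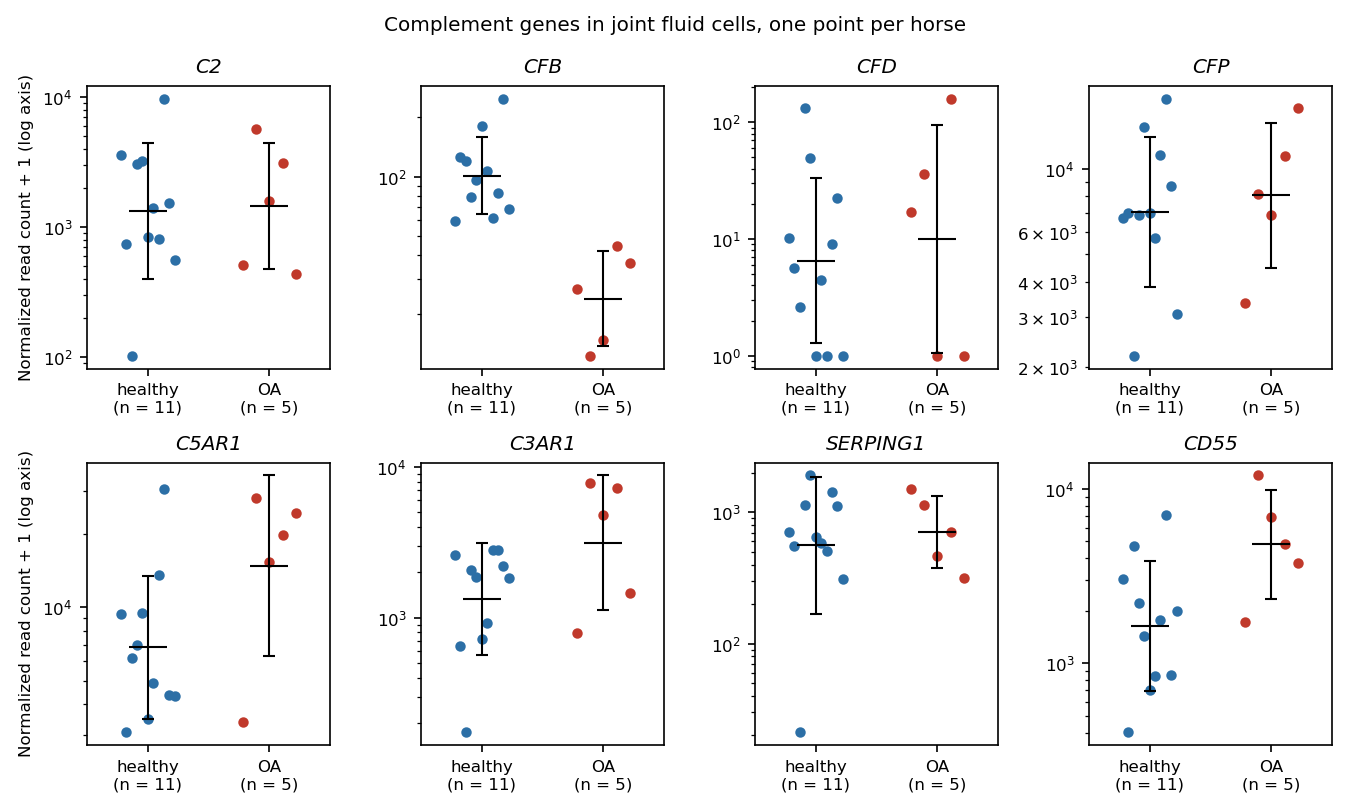
Normalized read count + 1 (log axis) of the 8 complement genes in joint fluid cells, one point per horse, with the mean of the logs and its SD as bars. For CFB the 5 OA horses (11.3 to 43.2) all lie below the 11 healthy horses (58.6 to 247), and in the other 7 panels the groups overlap.

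CFB encodes factor B and lies on chromosome 20, from 32528554 to 32535443 (EquCab3.0). Its normalized read counts in OA fluid were 25.9 in OA_1038, 11.3 in OA_2615, 13.8 in OA_3850, 43.2 in OA_9350 and 35.2 in OA_9570. The 11 healthy fluids ran from 58.6 over a median of 95.6 to 247. All 5 OA horses were thus below the lowest healthy horse, ORC_188, a separation toward lower values that 1.99% of all tested genes showed, while 0 of the 8 genes separated toward higher values (1.57% of all genes). The means were 25.9 ± 13.7 (SD, n = 5) and 111 ± 57.4 (SD, n = 11). The log2 change was -2.08 with an SE of 0.46 (95% interval -3.03 to -1.13, limma adjusted p = 0.00424), a 4.23-fold lower level. These values rest on 9 to 36 reads per OA library and 64 to 255 per healthy library. Without OA_9570 and ORC_202 the log2 change was -2.30 (adjusted p = 0.00222), and CFB was called in all 16 fits that left out 1 fluid library each.

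T cell markers moved in the same direction as CFB in fluid. The summed level of the 10 markers ran from 7824 to 33366 in OA and from 34642 to 126191 in healthy fluid, again without overlap, and none of the 10 was at 0 in all libraries of a group. Interferon response genes were also lower in OA, with 9 of 13 called and summed levels of 14594 to 36077 against 22408 to 102587. Two-sided exact permutation tests then compared CFB relative to each list, that is log2 CFB minus the list's mean log2. Relative to the T cell markers, CFB differed by -0.04 between OA (n = 5) and healthy (n = 11) horses (exact permutation p = 0.895 over 4368 arrangements). Relative to the 13 interferon genes it differed by -0.72 (exact permutation p = 0.0588). Within the 11 healthy fluids, log2 CFB and the T cell marker mean gave r = 0.51 (permutation p = 0.104), rho = 0.32 and, without the 2 horses farthest from the median, r = 0.09. The T cell markers had a median log2 change of -2.03 in fluid, beside -2.08 for CFB, so their subtraction had to give a value near 0. It cannot decide the part of T cell content in the level of CFB, which was not tested. These comparisons with lists were added after the data had been seen.

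**Figure D2:**
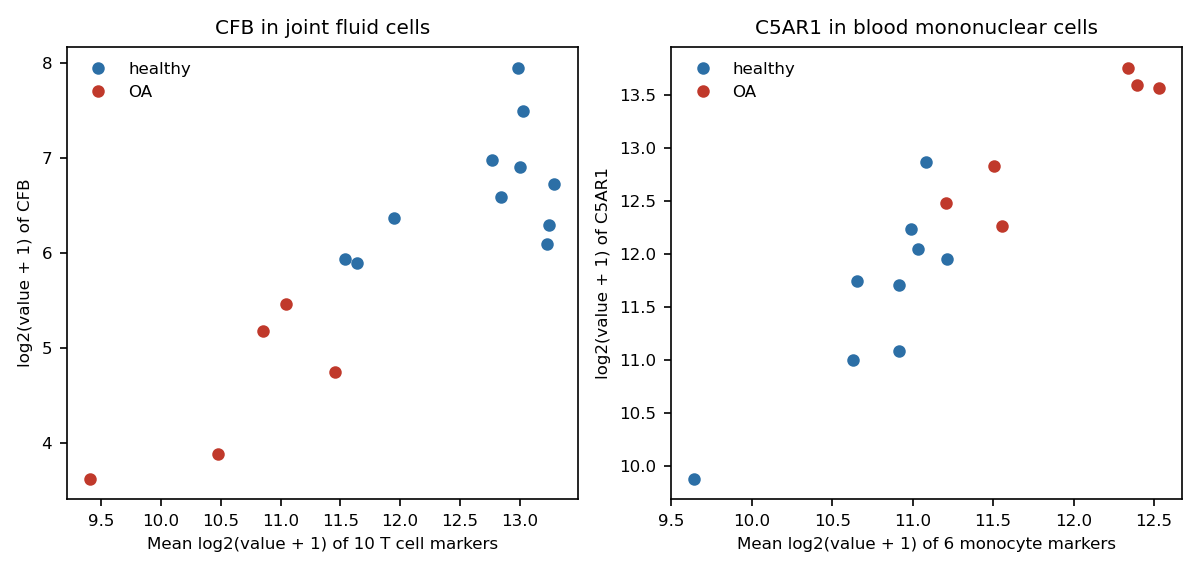
Left, log2(value + 1) of CFB in joint fluid cells against the mean log2(value + 1) of 10 T cell markers. Right, C5AR1 in blood mononuclear cells against 6 monocyte markers. Each point is a horse. OA fluids lie below 11.5 on the T cell axis and healthy fluids above it, and 3 OA horses lie to the upper right of all others in blood.

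C2 lies beside CFB on chromosome 20, from 32489298 to 32529006, and their annotated spans overlap by 453 bases. Whether reads were counted by strand is not given in the sources used here. C2 read 513, 5722, 1600, 3093 and 433 in OA_1038, OA_2615, OA_3850, OA_9350 and OA_9570, and from 102 over a median of 1398 to 9719 in healthy fluid. The ranges overlapped almost fully, with means of 2272 ± 2208 (SD, n = 5) and 2323 ± 2722 (SD, n = 11). The log2 change was 0.13 (SE 0.85, 95% interval -1.66 to 1.92, adjusted p = 0.92), with an interval that spans changes of both signs. C2 and CFB therefore stood differently in OA_2615, which had the highest C2 and the lowest CFB of the OA fluids.

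CFD, which encodes factor D and lies on chromosome 7 (369962 to 373196), was low in fluid. OA_3850 and OA_9570 had 0 reads, OA_1038 read 16.0, OA_2615 35.2 and OA_9350 158. Healthy fluids ran from 0, in 3 horses, over a median of 4.63 to 131. With a log2 change of 0.61 (SE 1.36, adjusted p = 0.757) and an interval from -2.23 to 3.46, CFD was not called.

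CFP, the properdin gene on chromosome X (40071185 to 40076824), read 3361, 8162, 6854, 11088 and 16359 in OA_1038, OA_2615, OA_3850, OA_9350 and OA_9570. Healthy fluids ran from 2190 over a median of 6958 to 17664, so every OA value lay within the healthy range. The log2 change was 0.20 (SE 0.43, 95% interval -0.70 to 1.10, adjusted p = 0.753).

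Both anaphylatoxin receptors had higher means in OA fluid, and limma called neither. C5AR1, the main C5a receptor (chromosome 10, 17645549 to 17647766), read 3384 in OA_1038, 28191 in OA_2615, 15345 in OA_3850, 19888 in OA_9350 and 24324 in OA_9570. Healthy fluids ran from 3071 over a median of 6207 to 30709. Apart from OA_1038, near the healthy minimum, the OA horses lay above the healthy median, and the single healthy horse ORC_205 was above them all. The means were 18226 ± 9589 (SD, n = 5) and 8773 ± 7939 (SD, n = 11), with a log2 change of 1.11 (SE 0.52, 95% interval 0.02 to 2.20, adjusted p = 0.114). C5AR1 was called without OA_1038 (adjusted p = 0.0202) and without ORC_205 (adjusted p = 0.0344). These were 2 of the 16 fits that left out 1 library, and the limma adjusted p reached 0.275 in the others.

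C3AR1, the C3a receptor (chromosome 6, 36415233 to 36416688), read 788 in OA_1038, 7850 in OA_2615, 4805 in OA_3850, 7212 in OA_9350 and 1453 in OA_9570. Healthy fluids ran from 173 over a median of 1865 to 2823. OA_2615, OA_3850 and OA_9350 thus exceeded all 11 healthy horses, while OA_1038 and OA_9570 lay below the healthy median. The means of 4422 ± 3229 (SD, n = 5) and 1696 ± 932 (SD, n = 11) differed by a log2 change of 1.24 (SE 0.65, 95% interval -0.14 to 2.61, limma adjusted p = 0.16). DESeq2 called it (log2 change 1.38, adjusted p = 0.0309).

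Of the regulators, limma called neither in fluid, whereas DESeq2 called CD55 higher (log2 change 1.35, adjusted p = 0.0388), as did limma with weights per library (2.36, adjusted p = 0.00133). CD55, the decay-accelerating factor (chromosome 5, 28033522 to 28073111), read 1735 in OA_1038, 11947 in OA_2615, 6871 in OA_3850, 4801 in OA_9350 and 3737 in OA_9570. Healthy fluids ran from 403 over a median of 1767 to 7083. Of the OA horses 4 of 5 were above the healthy median and 1, OA_2615, above the healthy maximum, which was again ORC_205. The means were 5818 ± 3896 (SD, n = 5) and 2277 ± 2014 (SD, n = 11), and the log2 change was 1.55 (SE 0.58, 95% interval 0.32 to 2.78, limma adjusted p = 0.0563). CD55 was called by limma without OA_1038 (adjusted p = 0.0337), ORC_196 (0.0384) or ORC_205 (0.0209). These were 3 of the 16 fits that left out 1 library, and the limma adjusted p reached 0.169 in the others.

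SERPING1, the C1 inhibitor gene (chromosome 12, 21202095 to 21214880), read 1499, 1130, 466, 713 and 313 in OA_1038, OA_2615, OA_3850, OA_9350 and OA_9570. Healthy fluids ran from 20.1 over a median of 652 to 1912. The groups overlapped, with a log2 change of 0.34 (SE 0.77, 95% interval -1.28 to 1.95, adjusted p = 0.765). Unlike the receptors and CD55, SERPING1 was highest, not lowest, in OA_1038 among the OA fluids.

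The same few horses held the ends of the range for several of these genes. OA_1038 was the lowest OA fluid for CFP, C5AR1, C3AR1 and CD55, and it also had the lowest summed monocyte markers (21448) and resident macrophage markers (12399) of the OA fluids. OA_2615 was the highest OA fluid for C2, C5AR1, C3AR1 and CD55, and it had the highest summed fibroblast markers (680538) and the lowest T cell markers. Among healthy fluids ORC_196 was lowest for C2, CFP, C3AR1 and SERPING1. It also had the lowest summed macrophage markers (1793) and the highest B cell markers (31131). ORC_205 was highest for C2, CFP, C5AR1, C3AR1 and CD55 and for the macrophage markers (90842). Whether cell makeup accounts for these places was not tested.

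In blood, C5AR1 was higher in OA and was the only gene of the 8 called. One gene in 8 was called higher, where 3.2% of the 13072 genes tested were higher. None was called lower by limma, edgeR or DESeq2, where limma called 2.2% of all genes lower, and 0 of the 8 were lower at an unadjusted p below 0.05. The median log2 change was 0.35, against 0.02 over all genes tested, with 6 of 8 above 0. Of the 13072 genes tested, 6791 lay above 0.

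**Figure D3:**
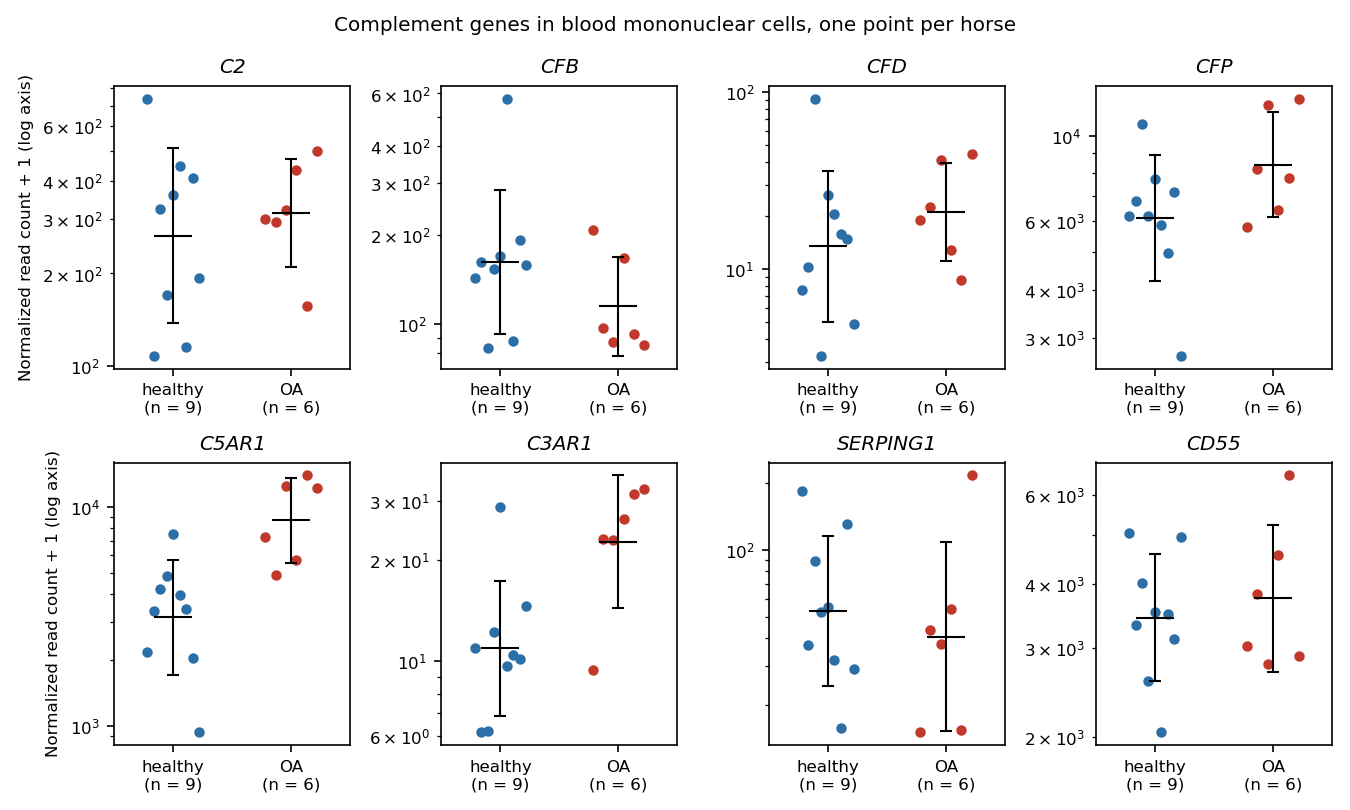
Normalized read count + 1 (log axis) of the 8 complement genes in blood mononuclear cells, one point per horse, with the mean of the logs and its SD as bars. For C5AR1 all 6 OA horses (4899 to 13860) lie above the healthy median of 3428, and 1 healthy horse, at 7485, lies among them.

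C5AR1 ran from 4899 over a median of 9706 to 13860 in OA blood and from 941 over a median of 3428 to 7485 in healthy blood. OA_3850 (12381), OA_9350 (13860) and OA_9570 (12118) exceeded all 9 healthy horses, the other 3 OA horses lay between 4899 and 7295, and of the healthy horses ORC_202 alone exceeded the OA minimum. The means were 9375 ± 3862 (SD, n = 6) and 3604 ± 1896 (SD, n = 9). The log2 change was 1.47 with an SE of 0.37 (95% interval 0.69 to 2.25, limma adjusted p = 0.0344), a 2.77-fold higher level. Without OA_9570 and ORC_202 it was 1.53 (adjusted p = 0.044). The call ended when OA_3850 (adjusted p = 0.0999), OA_9350 (0.1), OA_9570 (0.0991), ORC_188 (0.0501), ORC_207 (0.0584) or ORC_208 (0.0646) was left out, with log2 changes of 1.25 to 1.63 over the 15 such fits.

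Monocyte and neutrophil markers moved with C5AR1 in blood. The 6 monocyte markers summed to 38702 to 93814 in OA and 16188 to 38237 in healthy blood, with VCAN and CCR2 among those called higher. The 5 neutrophil markers with a row summed to 31730 to 69651 against 8069 to 38918, with S100A12 called higher, and none was at 0 in all libraries of a group. Relative to the monocyte marker mean, C5AR1 was 0.33 higher on the log2 scale in OA (1.16 ± 0.26, SD, n = 6) against 0.83 ± 0.52 in the healthy group (SD, n = 9). An exact two-sided permutation test gave p = 0.177 for this comparison, which was added after the data had been seen. The monocyte markers had a median log2 change of 1.20 in blood, beside 1.47 for C5AR1, so their subtraction had to remove much of the change. It cannot decide the part of monocyte content in the level of C5AR1, which was not tested. OA blood libraries were also deeper on average, and the part of depth in the C5AR1 difference was not tested.

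The other receptor, C3AR1, was low in blood, with 5 to 36 reads per library. Its values ran from 8.45 over a median of 23.8 to 31.6 in OA and from 5.15 over a median of 9.46 to 27.8 in healthy blood. Of the OA horses 5 of 6 lay above the healthy median, with OA_1038 the exception. The log2 change was 1.05 (SE 0.40, 95% interval 0.22 to 1.89, adjusted p = 0.115), and the gene was called without OA_1038 (0.0459) or ORC_202 (0.0355). These were 2 of the 15 fits that left out 1 library, and the limma adjusted p reached 0.252 in the others.

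Among the components, CFB ran from 84.0 over a median of 93.9 to 207.4 in OA blood and from 82.1 over a median of 157 to 574 in healthy blood. The ranges overlapped and the log2 change was -0.49 (SE 0.35, 95% interval -1.24 to 0.25, adjusted p = 0.385). C2 ran from 156 over 310 to 497 in OA and from 107 over 323 to 736 in healthy blood (log2 change 0.24, SE 0.39, adjusted p = 0.719). For CFP the OA horses ran from 5817 over 7975 to 12443, with 5 of 6 above the healthy median of 6204, and the healthy horses from 2698 to 10685. Its log2 change was 0.46 (SE 0.24, 95% interval -0.05 to 0.97, adjusted p = 0.245). CFD was low, with 9 to 48 reads in OA and 2 to 87 in healthy blood (log2 change 0.65, SE 0.63, adjusted p = 0.535).

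The regulators overlapped between the groups in blood. SERPING1 ran from 14.1 over 39.6 to 216 in OA and from 14.7 over 51.4 to 182 in healthy horses (log2 change -0.39, SE 0.60, adjusted p = 0.708). Its OA maximum came from OA_9570, which was also the highest OA blood for C2, CFD, CFP and C3AR1. CD55 ran from 2784 over 3427 to 6546 in OA and from 2046 over 3491 to 5042 in healthy horses. With a log2 change of 0.12 (SE 0.21, adjusted p = 0.736), its 95% interval ran from -0.32 to 0.57.

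**Figure D4:**
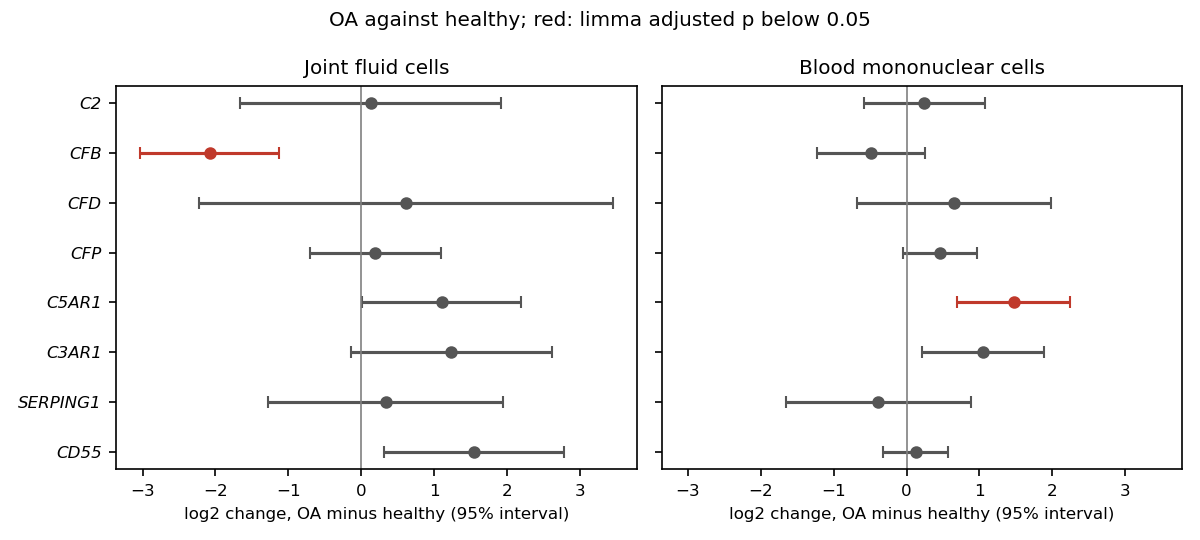
Fitted log2 change of the 8 complement genes, OA minus healthy, with 95% intervals, in joint fluid cells (left) and blood mononuclear cells (right). CFB in fluid (-2.08) and C5AR1 in blood (1.47) are the genes with an adjusted p below 0.05, in red.

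The OA effect in fluid was then compared with that in blood for each gene, as a difference of the log2 changes. The fit took every library as independent, although 13 horses gave both tissues. By limma 0 of 8 genes differed, where 10.3% of the 12733 genes tested had a higher and 11.9% a lower effect in fluid. At an unadjusted p below 0.05, for which no share over all genes is given, 2 of the 8 differed. These were CFB, with a difference of -1.59 (SE 0.60, 95% interval -2.82 to -0.35, adjusted p = 0.0563), and CD55, with 1.42 (SE 0.58, 95% interval 0.23 to 2.61, adjusted p = 0.076). For C5AR1 the difference was -0.36 (SE 0.70, 95% interval -1.78 to 1.06, adjusted p = 0.752), so its call in blood and not in fluid shows no difference between the tissues. The remaining 5 genes had differences of -0.26 to 0.72 with adjusted p of 0.669 to 0.991. On within-horse differences, limma gave -1.33 for CFB (adjusted p = 0.0975) and 1.52 for CD55 (adjusted p = 0.128).

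Healthy horses differed widely among themselves in fluid. C2 spanned 95.7-fold, SERPING1 94.9-fold, CD55 17.6-fold, C3AR1 16.3-fold, C5AR1 10.0-fold, CFP 8.06-fold and CFB 4.22-fold between the lowest and the highest of 11 fluids. The spread of CFB was thus the smallest of these 7, and a narrow healthy range makes groups that do not overlap, as for CFB, easier to obtain. In healthy blood the spans of these 7 genes were 2.46-fold (CD55) to 12.4-fold (SERPING1) over 9 horses.

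Several of the genes varied together over the 11 healthy fluids. Of 28 pairs, 5 had an adjusted permutation p below 0.05 for Pearson's r of log2 values. C2 and SERPING1 had r = 0.88 (p = 0.00043, adjusted p = 0.00728), rho = 0.91 (adjusted p = 0.007) and r = 0.78 without the 2 horses farthest from the median. CFP and SERPING1 had r = 0.83 (adjusted p = 0.00728), rho = 0.65 and r = 0.73 without those 2 horses. C5AR1 and CD55 had r = 0.76 (adjusted p = 0.0299), rho = 0.68 and r = 0.71. The relations of C2 with CFP (r = 0.81, rho = 0.55) and with C3AR1 (r = 0.79, rho = 0.70) rested on the 2 outermost horses, with r = 0.44 and 0.43 without them. None of the 5 pairs passed the adjustment without the 2 outermost horses (adjusted p = 0.109 to 0.577), and by rho only C2 with SERPING1 passed. C2 and CFB, neighbours on the chromosome, had r = -0.24 in healthy fluid and 0.35 in healthy blood. In the 9 healthy bloods 0 of 28 pairs passed, with 2 at an unadjusted p below 0.05 (C2 with SERPING1, r = 0.74, and CFP with C5AR1, r = 0.71).

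In healthy fluid, 4 of the genes passed the threshold for r with the resident macrophage markers. Of 48 relations between a gene and the mean of a marker list, 11 had an adjusted permutation p below 0.05. C2 had r = 0.93 with the macrophage markers (adjusted p = 0.006, rho = 0.80, 0.75 without 2 horses) and C3AR1 had r = 0.87 (adjusted p = 0.006, rho = 0.85, 0.72 without 2 horses). SERPING1 (r = 0.81, rho = 0.68) and CFP (r = 0.79, rho = 0.46) followed, and their r fell to 0.47 and 0.39 without 2 horses. C5AR1 did not pass (r = 0.70, permutation adjusted p = 0.0638, rho = 0.74), with r = 0.85 without 2 horses. CD55, CFD and CFB did not pass either (r = 0.31, 0.43 and -0.50), with r of 0.82, 0.54 and -0.66 without 2 horses. The same C2, CFP and SERPING1 ran against the B cell markers, with r of -0.80, -0.86 and -0.88. C3AR1 also followed the monocyte markers (r = 0.82), C2 and C5AR1 the fibroblast markers (r = 0.78 and 0.74), and CFB ran against the fibroblast markers (r = -0.72). None of the 48 passed after adjustment by Spearman's rho or without the 2 outermost horses. In healthy blood 0 of 40 such relations passed and 5 had an unadjusted p below 0.05. These were C5AR1 with the monocyte markers (r = 0.85, rho = 0.82, adjusted p = 0.202), the neutrophil markers (r = 0.75, rho = 0.88), the B cell markers (r = -0.73, rho = -0.70) and the resident macrophage markers (r = 0.66, rho = 0.52), and CFP with the monocyte markers (r = 0.82, rho = 0.40).

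A horse's fluid level did not follow its blood level closely enough to pass a test. Over the 8 healthy horses with both samples, 0 of 8 genes had an adjusted exact permutation p below 0.05. The highest r were 0.71 for CFD (p = 0.0464, adjusted p = 0.222, rho = 0.51, 0.12 without 2 horses) and 0.69 for C2 (p = 0.0555, adjusted p = 0.222, rho = 0.76, 0.57 without 2 horses), and the other 6 lay between -0.02 and 0.55.

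The genes most like each member in pattern were read from Pearson's r over the healthy libraries, as a description without a test. Over 11 fluids and 13879 genes, C2 was most like RNASE4 (r = 0.984), C3AR1 like RGL1 (0.969), SERPING1 like AXL (0.973), CFP like CORO1B (0.965), C5AR1 like NFIA (0.943), CD55 like SOX5 (0.919) and CFD like TEF (0.950). The 3 rows nearest to CFB in fluid carry no gene symbol. Over 9 bloods and 13071 genes, C5AR1 was most like PSRC1 (0.985), MMP25 (0.978) and ACER3 (0.972). CFP was most like ATP6AP1 (0.977), CD55 like HTRA4 (0.957), CFB like SH2D1B (0.898) and SERPING1 like ETNPPL (0.943). C2 was most like OPN3 (0.927), followed by C1R (0.915), which encodes a protease of the first complement component.

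A list of 41 other complement genes gave the setting in the rest of the pathway. In fluid 18 could be tested, of which 6 were called higher and 1 lower by limma, with a median log2 change of 1.005. There edgeR called 4 higher and 1 lower, and DESeq2 6 higher and 1 lower. In blood 17 could be tested, of which 4 were called higher and 0 lower by limma, with a median of 0.33. At an unadjusted p below 0.05, 7 were higher and 2 lower in blood (the latter CFI and C1QBP). EdgeR called 4 higher and 1 lower (CFI) in blood, and DESeq2 7 higher and 2 lower. For limma at an adjusted p below 0.05, the background shares are the same 14.4% and 13.6% in fluid and 3.2% and 2.2% in blood. They do not apply to the unadjusted, edgeR and DESeq2 counts, for which no share over all genes is given here. The blood count fell to 0 without OA_3850, OA_9350 or OA_9570, the fluid count higher to 3 without OA_2615, OA_3850 or OA_9350.

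**Figure D5:**
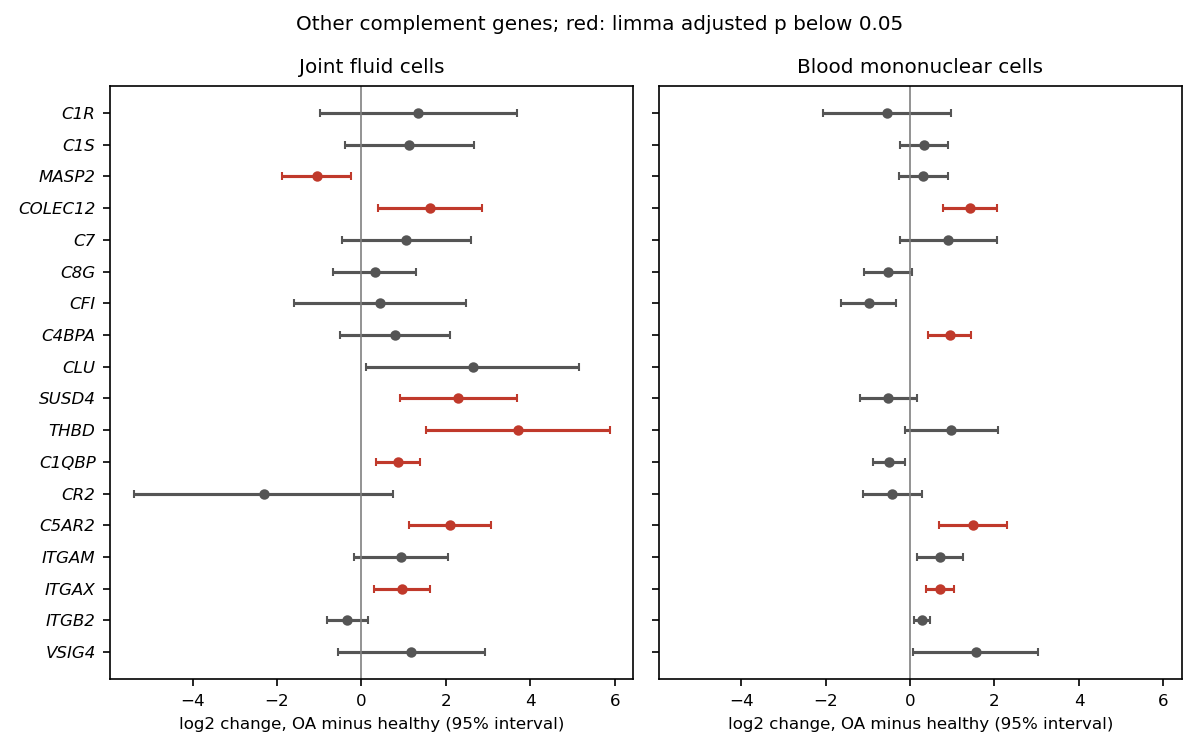
Fitted log2 change, OA minus healthy, with 95% intervals, of the other complement genes that could be tested, in joint fluid cells (left) and blood mononuclear cells (right), with an adjusted p below 0.05 in red. C5AR2, ITGAX and COLEC12 are red and to the right of 0 in both panels.

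C5AR2, the second C5a receptor, was higher in OA in both tissues: 650 ± 159 (SD, n = 5) against 186 ± 134 (SD, n = 11) in fluid, a log2 change of 2.10 (SE 0.46, adjusted p = 0.00449), and 299 ± 156 (SD, n = 6) against 104 ± 57.3 (SD, n = 9) in blood, a change of 1.498 (SE 0.38, adjusted p = 0.0353). ITGAX, the alpha chain of complement receptor 4, was higher in fluid (log2 change 0.95, adjusted p = 0.0326) and in blood (0.71, adjusted p = 0.0255). ITGAM, the alpha chain of complement receptor 3, had log2 changes of 0.94 in fluid and 0.71 in blood that limma did not call (adjusted p = 0.186 and 0.103). ITGB2, the beta chain that both share, had -0.33 in fluid (adjusted p = 0.277) and 0.29 in blood (adjusted p = 0.0718), and its effects differed between the tissues by -0.62 (adjusted p = 0.0419; 0.0902 on within-horse differences, where it was not called). DESeq2 called ITGAM and ITGB2 higher in blood.

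Of the regulators, THBD (thrombomodulin) rose in OA fluid from 134 ± 83.5 (SD, n = 11) to 2278 ± 3607 (SD, n = 5), with OA values of 558 to 8729 all above the healthy maximum of 277 (log2 change 3.71, SE 1.03, adjusted p = 0.015). Such a separation toward higher values was shown by 1.57% of all genes tested in fluid. SUSD4, a sushi-domain membrane protein, rose from 79.3 ± 76.7 (SD, n = 11) to 380 ± 348 (SD, n = 5; log2 change 2.29, SE 0.66, adjusted p = 0.0173). C1QBP, a mainly mitochondrial protein that binds C1q, rose from 2984 ± 1209 (SD, n = 11) to 5238 ± 1303 (SD, n = 5; log2 change 0.87, adjusted p = 0.017). Both SUSD4 and C1QBP had a higher effect in fluid than in blood, by 2.80 (adjusted p = 0.00704) and 1.37 (adjusted p = 0.00438). On within-horse differences SUSD4 was not called (adjusted p = 0.05002). Fibroblast markers summed to 1581 to 680538 in OA and 878 to 135634 in healthy fluid beside these regulators, and their part was not tested. C4BPA, the alpha chain of the C4b-binding protein, was higher in OA blood (log2 change 0.94, adjusted p = 0.0362) and had 0.80 in fluid (adjusted p = 0.344). CLU (clusterin) had a log2 change of 2.63 in fluid (limma adjusted p = 0.106), where DESeq2 called it higher. CFI, the factor I protease, had -0.98 in blood (limma adjusted p = 0.0671), where edgeR and DESeq2 called it lower.

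Of the recognition and initiation genes, COLEC12, a scavenger receptor of the collectin family, was higher in OA fluid (log2 change 1.62, adjusted p = 0.0466) and OA blood (1.42, adjusted p = 0.0221). MASP2, a protease of the lectin pathway, was lower in OA fluid, at 252 ± 104 (SD, n = 5) against 514 ± 211 (SD, n = 11; log2 change -1.06, adjusted p = 0.0495). When each fluid library was left out in turn, C5AR2 was called in 16 of 16 fits, C1QBP and THBD in 15, SUSD4 in 14, ITGAX in 11, and COLEC12 and MASP2 in 4. With each blood library left out, COLEC12 and ITGAX were called in 12 of 15 fits, C5AR2 in 8 and C4BPA in 7. In fluid COLEC12 and ITGAX were not called with edgeR or equal totals, nor COLEC12 with TMM, nor MASP2 with a pseudocount of 0.5 or without a filter on low values. DESeq2 gave THBD no adjusted p, and the difference in ITGB2 was called in 17 of 31 fits that left out 1 library. C1R and C1S, the proteases of the classical pathway, had log2 changes of 1.34 (adjusted p = 0.372) and 1.13 (adjusted p = 0.249) in fluid.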

How the data were processed

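The deposited signal per gene is a normalized read count (median-ratio scaling by the authors), in 1 table per tissue. The submitters' processing notes name DESeq, HTSeq, STAR 2.7.3, cutadapt and Partek, and the build EquCab3.0; for strand settings and filters the sources used here give nothing. Low values were whole multiples of 1 read, so the reads were recovered (99.85% to 99.98% of a library's values whole within 0.1 read). Depth and the number of horses both limit precision.

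Genes with a mean of at least 10 were fitted as log2(value + 1) with limma 3.58.1 (R 4.3.3, trend and robust), OA against healthy, two-sided, with Benjamini-Hochberg adjustment over all genes tested; fold changes are on that scale, which understates low genes. The difference between tissues used 4 group means with weights per tissue, without the pairing by horse. Alternatives included edgeR 4.0.16 and DESeq2 1.42.0 on the recovered reads, other pseudocounts, filters and scalings, and leaving out libraries. Correlations used log2 values of healthy horses, with permutation p-values adjusted within each family; r was repeated without the 2 horses farthest from the median. The steps were tested on simulated data. The fluid and blood of 13 horses are paired by horse number: deviations from the group means correlated in all 13 (0.123 to 0.391). Horses are separate animals.

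The members and lists were chosen with earlier results of these data known. Named were every member, the complement genes past the threshold with up to 6 more of high mean, and for each member the genes of highest r; CFI, C1S, CR2, C7, C8G and C5 were named outside this rule, after their values were seen.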

Additional observations from a re-analysis of the deposited data

Results flagged for a closer look

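Each gene's values were checked in each group of 5 to 10 horses for a highest or lowest horse far from the rest, and 3 of 24 such groups had one, where chance gives about 1 in 20. C5AR1 in OA fluid had its lowest value, 3384 normalized counts, in OA_1038, and the gap to the next horse took up 0.713 of the log2 range over 5 horses. C3AR1 in OA blood was also lowest in OA_1038, at 8.45, with a gap of 0.713 of the range over 6 horses. CFB in healthy blood was highest in ORC_205, at 574, with a gap of 0.566 of the range over 9 horses.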

How the results depend on the processing

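CFB in fluid kept its direction and its call under 10 other settings (pseudocounts of 0.5 and 5, no filter, a minimum mean of 50, edgeR, DESeq2, equal totals, TMM, weights per library, without OA_9570 and ORC_202) and with each library left out (log2 -2.30 to -1.84 over the left-out libraries). C5AR1 in blood was called under the same 10 settings. As reported, 0 members were called higher in fluid, 1 in blood and 0 in the difference. With DESeq2 2 were higher in fluid. With limma weights per library 3 were higher in fluid, 3 in blood, and 2 differed. The shares of all genes called also moved with the setting, so these counts say little about the members. Over all alternatives and left-out libraries they reached 26.3% higher in fluid and 10.5% higher in blood. In the difference they reached 17.4% higher and 19.9% lower. In the difference 1 was called with a minimum mean of 50, 1 with equal totals and 1 without OA_9570 and ORC_202. Leaving out 1 library gave 0 to 2 higher in fluid, 0 to 2 in blood and 0 to 1 in the difference. In the replicate block, on within-horse differences, 0 members were called, with CFB at -1.33 (adjusted p = 0.0975) and CD55 at 1.52 (adjusted p = 0.128); C3AR1 turned to -0.14.

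Signs turned for genes that were not called. In fluid C2 was -0.066 with edgeR, -0.031 with DESeq2, -0.071 with equal totals and -0.37 to 0.56 over left-out libraries; SERPING1 was -0.061 with edgeR, -0.069 with weights and -0.14 to 0.63; CFD was -0.69 with weights and -0.38 to 1.44; CFP was -0.0057 with equal totals and -0.058 to 0.51. In blood SERPING1 was 0.0054 with weights and CD55 -0.036 to 0.21. In the difference, C2 was 0.33 without OA_9570 and ORC_202 and -0.61 to 0.32 over left-out libraries. CFD was 0.15 with a pseudocount of 5, 0.62 without those 2 horses and -1.03 to 0.80. CFP was -0.52 to 0.053, C5AR1 -0.59 to 0.17, C3AR1 -0.032 with equal totals and -0.14 to 0.68, and SERPING1 -0.12 with weights. Between fluid and own blood, r was -0.093 for C5AR1 and 0.92 for CD55 without 2 horses, and rho 0.24 for CD55. The causes were not tested.

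Scaling to equal totals moved the median log2 change of all genes from 0.08 to -0.12 in fluid, and the share of calls that were higher from 51.4% to 32.0%; CFB was then -2.28. In the difference that share went from 46.4% to 26.1%. Over all alternatives and left-out libraries, 8.72% to 26.3% of genes were called higher in fluid and 0.107% to 10.5% in blood. Read numbers were low for CFD in both tissues, for C3AR1 in blood and for CFB in OA fluid (9 to 36 reads per library).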

Other observations

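Terminal pathway genes were low in fluid cells. C7, which joins the membrane attack complex, had 47.9 ± 20.8 normalized counts in OA fluid (SD, n = 5) and 33.3 ± 38.2 in healthy fluid (SD, n = 11; log2 change 1.06, SE 0.73, limma adjusted p = 0.281). C8G, the gamma chain of C8, had 72.8 ± 32.5 and 60.4 ± 30.6 (log2 change 0.31, adjusted p = 0.636). C5 had means of 0 in OA fluid and 0.21 in healthy fluid, and was not tested.

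VSIG4, a macrophage receptor for C3 fragments, had 1746 ± 1654 in OA fluid and 736 ± 961 in healthy fluid (log2 change 1.18, adjusted p = 0.291), and 208.1 ± 210.4 in OA blood against 54.0 ± 33.0 in healthy blood (log2 change 1.56, limma adjusted p = 0.177, though DESeq2 called it higher). CR2, the complement receptor of B cells, reached 1245 in 1 healthy fluid and 51.7 at most in OA fluid (log2 change -2.32, adjusted p = 0.239). MASP2 had a log2 change of 0.31 in blood (adjusted p = 0.492) against the fall in fluid, and the difference between tissues was -1.37 (adjusted p = 0.0522).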
